A study of Mus musculus with 15 samples.

Results

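Matricellular proteins are secreted into the extracellular matrix but act mainly on cells, through integrins and other surface receptors, and by binding growth factors. Most are scarce in the healthy adult heart and are made by fibroblasts and other cells of the ventricle under load or after injury. Periostin and connective tissue growth factor (CCN2) are among the best known of them in cardiac fibrosis, and transforming growth factor beta induces both. The genes described here are Postn, Ccn2, Ccn1, Sparc, Thbs1, Thbs2, Tnc, Spp1 and Fn1. Fn1 encodes fibronectin, a structural matrix protein that many of the others bind. Members were the probe sets annotated to 1 of these symbols and to no other gene. The rule found 8 probe sets for 7 of the 9 genes, among 12422 probe sets of the array that were not controls. Thbs1 shared its 1 probe set with Pald1, where no array exceeded an intensity of 8.28. For Spp1 the annotation used here listed no probe set, and neither gene was analysed here.

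The study measured left ventricle RNA of mice with and without pressure overload, on 15 single-colour arrays. The groups were 3 female sham, 3 female TAC, 6 male sham and 3 male TAC hearts. TAC usually stands for transverse aortic constriction, a banding of the aorta that loads the left ventricle, but the labels do not spell it out. They give no strain, age, allele, drug or time after the operation, and do not say that each heart came from a separate animal. The p-values below therefore measure the spread between these samples, and precision is set by how few arrays there are.

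The array medians lay between 21.2 and 26.7 intensity units, the lowest on female TAC 1. Female TAC 1 and female TAC 2 correlated least with the other arrays, with a mean r of 0.936 and 0.938, where the other 13 lay between 0.940 and 0.957. The averaged changes of Postn, Ccn2 and Ccn1 are also given without them, where female TAC 3 is the only female TAC array left. Correlations between genes and marker sums rest on all 15 arrays. All 8 cardiomyocyte markers on the array, such as Myl2 and Tnni3, were above 20 units on each of the 15 arrays. The atrial light chains Myl4 and Myl7 were measured too, with group means from 124 to 211 units, and had no called change with TAC (adjusted p from limma 0.876 and 0.994). Of the other atrium markers, Nppa rose by 2.83 ± 0.22 on the log2 scale (SE, adjusted p from limma 1.29e-06) and Sln was too dim to be tested. The summed intensity of the 4 atrium markers ran from 204 to 847 over the male sham arrays. Values were raised to a floor of 20 units before log2 was taken, and the brightest 60% of probe sets were tested, 7453 in all. A probe set is called changed where the adjusted p from limma was under 0.05.

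Of the 8 member probe sets, 6 were bright enough to be tested, 1 each for Postn, Ccn2, Ccn1, Sparc, Tnc and Fn1. Postn and Ccn2 rose with TAC. The other 4 tested members had higher averages with TAC, as had 41.8% of all tested probe sets, but did not pass the test. Thbs2 and the second Tnc probe set were too dim. Because Postn showed the largest change of the members and Ccn1 is the paralog of Ccn2, their proximal promoters are shown first, from the RefSeq promoter table of build GRCm38.p6. Each line gives the 120 bases before an annotated transcription start, 5′ to 3′ in the direction of the gene. Capitals mark matches to the motifs named in the next paragraph.

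Postn, first start, chr3:54359147-54359266, plus strand: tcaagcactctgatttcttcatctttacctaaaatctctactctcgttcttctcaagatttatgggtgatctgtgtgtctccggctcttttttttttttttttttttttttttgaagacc
Postn, second start, chr3:54360987-54361106, plus strand: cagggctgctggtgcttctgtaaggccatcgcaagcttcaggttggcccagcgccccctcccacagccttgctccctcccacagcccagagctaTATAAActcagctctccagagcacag
Ccn1, chr3:145649986-145650105, minus strand: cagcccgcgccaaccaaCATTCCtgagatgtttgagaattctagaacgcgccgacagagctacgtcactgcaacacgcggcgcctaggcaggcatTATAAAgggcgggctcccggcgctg

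The table held 9 promoter entries for 6 of the 9 genes, and no promoter is shown for Ccn2, Thbs1 or Fn1. The 250 bases before each start were searched on both strands for 5 motifs. These were the TATA box TATAAA, the TEAD motif GGAATG, the SMAD motif CAGACA, the AP-1 motif TGANTCA and the CArG box of serum response factor. TATAAA began 26 bases before the second Postn start and 25 bases before the Ccn1 start, and 12.4% of all 32851 promoters in the table held it. It was also matched farther from the start in Tnc (126 and 205 bases before its 2 starts), Spp1 (211) and, in reverse complement, Thbs2 (126). CATTCC, the reverse complement of GGAATG, began 103 bases before the Ccn1 start, and 12.6% of all promoters held that motif. The first Postn start had no match to any of the 5. CAGACA was matched, in reverse complement, before starts of Sparc, Tnc, Thbs2 and Spp1, and in 17.1% of all promoters. No member window held TGANTCA or a CArG box, which 6.75% and 1.47% of all promoters held. A match describes the letters only.

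Postn encodes periostin, a secreted protein that binds integrins and collagen and marks activated fibroblasts. Its probe set (92593_at) read 30.3, 28.5 and 37.5 units on the female sham arrays and 58.8, 162 and 79.6 on the female TAC arrays. In males the 6 sham arrays ran from 14.0 to 35.3 with a median of 21.4, and the TAC arrays read 51.0, 71.1 and 61.8. Every TAC array lay above every sham array, and female TAC 2 was far above the rest. Group means were 32.1 ± 4.8 (SD, n = 3) and 100.1 ± 55 (SD, n = 3) in female sham and TAC hearts, and 22.7 ± 7.1 (SD, n = 6) and 61.3 ± 10 (SD, n = 3) in male hearts. Averaged over the sexes, Postn was 2.73-fold higher with TAC, with a 95% interval of 2.06 to 3.62 (adjusted p from limma 0.00109). By size of the log2 change it was the 4th highest of the 7453 probe sets. Only 2 male sham arrays were below the floor, so the fold is slightly smaller than it would be without it, and a floor of 3.09 gave a log2 change of 1.497 in place of 1.451.

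Ccn2 encodes connective tissue growth factor, a cysteine-rich protein that binds integrins, heparan sulphate and growth factors. Its probe set (93294_at) read 58.3, 69.1 and 57.5 units in female sham and 99.4, 190 and 234 in female TAC hearts. Male sham arrays ran from 44.1 to 85.5 with a median of 59.2, and male TAC arrays read 130, 144 and 125. Again all 6 TAC arrays lay above all 9 sham arrays, with female TAC 1 lowest of the 6. The means were 61.6 ± 6.5 (SD, n = 3) against 174.5 ± 69 (SD, n = 3) in females and 63.9 ± 15 (SD, n = 6) against 132.9 ± 9.8 (SD, n = 3) in males. The averaged rise was 2.38-fold, with an interval of 1.84 to 3.09 (adjusted p from limma 0.00186). This was the 6th highest of the tested probe sets by log2 change.

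Among the 6 tested members, 2 were called and both were higher, where 0.322% of all tested probe sets were called and 0.268% were called higher. The same 2 had all TAC arrays above all sham arrays, which held for 0.255% of tested probe sets, and for 0.429% when the sexes were taken separately. An exact permutation test that exchanged sham and TAC within sex (two-sided, 1680 arrangements, unadjusted) gave p = 0.000595 for Postn and for Ccn2, the smallest it can give. Both kept their calls when any 1 of the 15 arrays was left out, with a log2 change of 1.24 to 1.61 for Postn and 1.13 to 1.43 for Ccn2. Without female TAC 1 and female TAC 2 together, the changes were 1.35 and 1.51, but female TAC was then 1 array without a replicate. In whole ventricle, more cells of a type and more RNA per cell cannot be told apart.

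**Figure D1:**
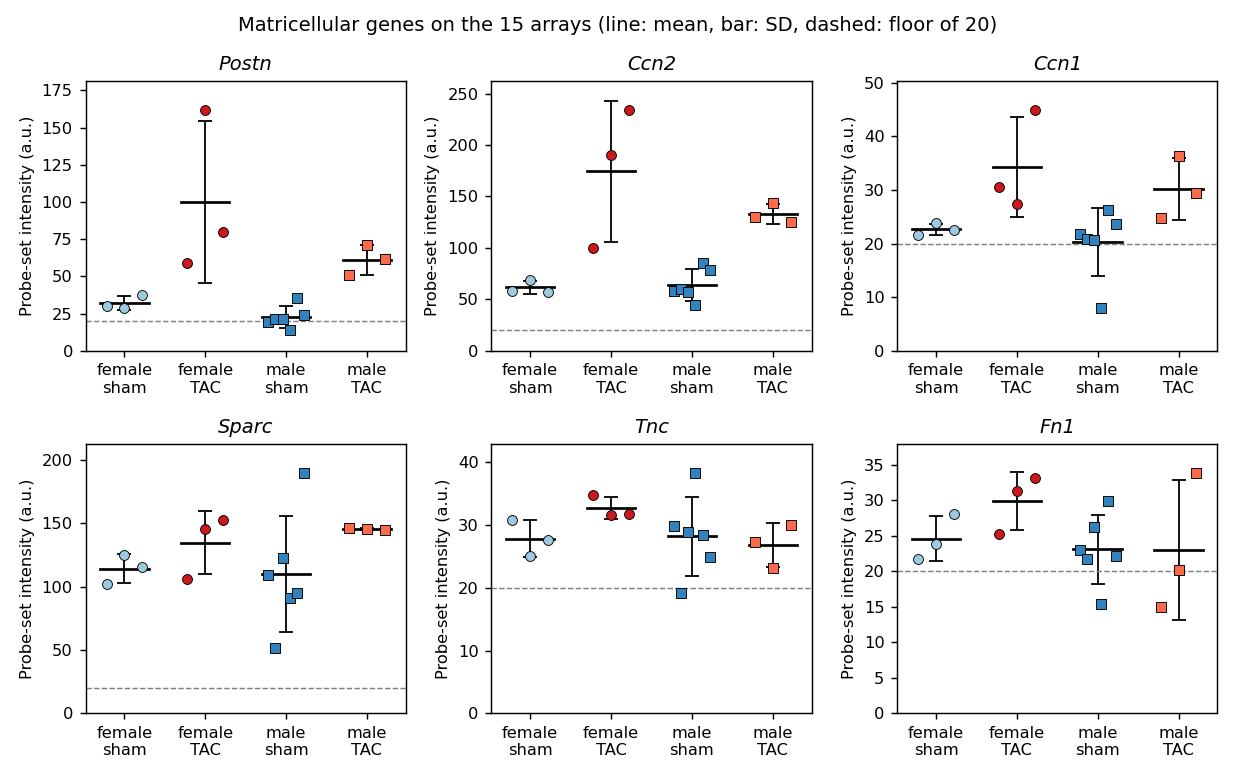
Probe-set intensity (arbitrary units, axis from 0) of the 6 tested matricellular genes on each of the 15 arrays, by sex and operation; points are arrays, long lines group means, bars SD and the dashed line the floor of 20. For Postn the TAC arrays start at 51.0 and the sham arrays end at 37.5, and for Ccn2 these are 99.4 and 85.5, while the other 4 genes overlap between operations.

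Ccn1, formerly Cyr61, encodes the paralog of CCN2 that is known as an immediate early gene product and an integrin ligand. Its probe set (92777_at) was dim, at 21.7, 23.8 and 22.5 units in female sham and 30.5, 27.3 and 44.9 in female TAC hearts. In males the sham arrays ran from 7.97 to 26.2 with a median of 21.4, and the TAC arrays read 24.8, 36.4 and 29.4. Of the 6 TAC arrays, 5 were above the highest sham array, and male TAC 4 was not. The averaged log2 change was 0.50 ± 0.12 (SE), or 1.41-fold with an interval of 1.18 to 1.69, and did not pass (adjusted p from limma 0.126). For this single value the exact permutation test gave p = 0.00119, 2 of 1680 arrangements being as large. Ccn1 passed in 4 of 10 other settings, among them quantile normalization (adjusted p = 0.0483), median centring (0.0444) and array weights (0.00717). The other was the omission of female TAC 1 and 2, with a change of 0.71. It leaves female TAC 3, the array with the highest Ccn1 (44.9), as the only female TAC array. With female TAC 3 alone left out, the change was 0.39. Over the 10 settings the adjusted p ran from 0.00717 to 0.551.

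The difference between the log2 changes of Ccn2 and Ccn1 was tested after their values had been seen. Ccn2 changed by 0.76 more than Ccn1 on the log2 scale (exact permutation test, two-sided, p = 0.000595, the smallest possible). Without the floor, which hides how far male sham 7 lay below 20 in Ccn1, the difference was 0.64 (exact permutation p = 0.0113).

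Sparc encodes osteonectin, a collagen-binding protein needed for normal collagen fibril assembly. Its probe set (97160_at) read 102, 125 and 115 units in female sham and 106, 145 and 152 in female TAC hearts. Male sham arrays spread widely, from 51.4 to 190 with a median of 102, whereas the 3 male TAC arrays read 146, 146 and 144. The ranges overlapped in both sexes, and the highest sham array exceeded every TAC array. The averaged log2 change of 0.37 ± 0.20 (SE) did not pass (adjusted p from limma 0.740), and its interval ran from -0.06 to 0.80. The exact permutation p was 0.0905. As a fold that interval reaches 1.74.

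Fn1 encodes fibronectin, the adhesive scaffold on which other matrix proteins are laid down. Its probe set (92852_at) read 21.8, 23.9 and 28.1 units in female sham, 25.3, 31.4 and 33.1 in female TAC and 14.9, 20.2 and 33.9 in male TAC hearts. Male sham arrays ran from 15.5 to 29.9 with a median of 22.6. The ranges overlapped in both sexes, and these values lay close to the floor. The averaged change was 0.15 ± 0.14 (SE), with an interval of -0.14 to 0.44 (adjusted p from limma 0.862) and an exact permutation p of 0.284.

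Tnc encodes tenascin-C, a large anti-adhesive glycoprotein of remodelling tissue. Its brighter probe set (101993_at) read 30.8, 25.0 and 27.6 units in female sham, 34.7, 31.5 and 31.7 in female TAC and 27.3, 23.1 and 30.01 in male TAC hearts. Male sham arrays ran from 19.1 to 38.3 with a median of 28.6, and their range held all 3 male TAC values. In females the 3 TAC arrays were above the 3 sham arrays by a small margin, where the smallest exact permutation p for 3 against 3 is 0.1. The averaged change was 0.09 ± 0.13 (SE), with an interval of -0.18 to 0.35 (adjusted p from limma 0.919; exact permutation p = 0.474). The second Tnc probe set (162362_f_at) stayed at or below 16.2 units on every array and gave no level above the floor.

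Thbs2 encodes thrombospondin-2, an inhibitor of angiogenesis that regulates collagen assembly. Its probe set (94930_at) was below 20 units on 14 of the 15 arrays, and male TAC 4 read 23.9. Female arrays ran from 0 to 15.5 units and male sham arrays from 0 to 18.9. The filter on dim probe sets left it out. The exact permutation test on floored values gave p = 0.333, and no fold is given because nearly all arrays were below the floor.

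**Figure D2:**
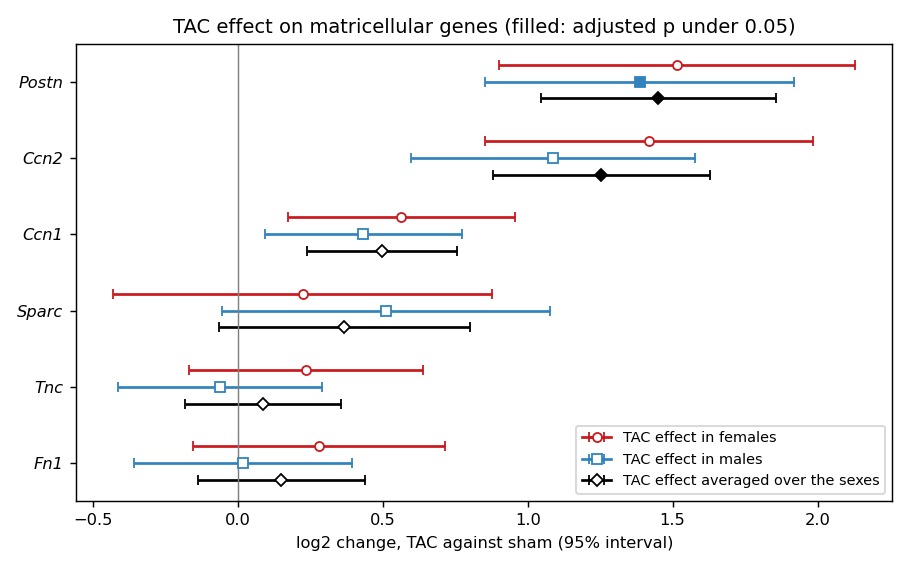
Log2 change of TAC against sham hearts with its 95% interval from limma for the 6 tested genes, in females (red circles), males (blue squares) and averaged over the sexes (black diamonds); filled symbols had an adjusted p under 0.05. The averaged intervals of Postn and Ccn2 start at 1.04 and 0.88, and those of Sparc, Tnc and Fn1 include 0.

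Within females, all 6 tested members had higher averages with TAC, as had 40.6% of all tested probe sets. None of the 6 was called, where 0.0805% of tested probe sets were called. At an unadjusted p under 0.05 in limma there were 3 of the 6, namely Postn, Ccn2 and Ccn1, and 342 of all 7453 tested probe sets. Postn changed by 1.52 ± 0.29 and Ccn2 by 1.42 ± 0.27 (SE, adjusted p from limma 0.0689 and 0.0657). Both passed when female TAC 1 was left out, with 1.83 and 1.78 (adjusted p = 0.00872 and 0.00183), and when male sham 8 was left out (0.0465 for both). Ccn2 also passed when female arrays were blocked by replicate number (adjusted p = 0.0414). Of 12 other settings, Postn passed in females in 4 and Ccn2 in 6. Those shared were quantile normalization (adjusted p = 0.0164 for each), median centring (0.00888 and 0.00582), trended and robust eBayes (0.0413 and 0.0270) and array weights (0.00740 and 0.00021). The 6 for Ccn2 include the omission of female TAC 1 and 2 together, which leaves female TAC 3 as the only female TAC array. That array had the highest Ccn2 of all 15 (234). The changes were then 1.93 for Ccn2 and 1.32 for Postn, with the spread taken from the other groups. In a fit of the 6 female arrays alone the adjusted p was 0.945 for Postn and 0.881 for Ccn2. Ccn1 changed by 0.56 ± 0.19 in females (SE, adjusted p from limma 0.898) and passed in 1 of 11 other settings, array weights (0.0224).

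Within males, Postn was called, at 1.39 ± 0.25 (SE, adjusted p from limma 0.0407), where 0.134% of tested probe sets were called. That call was held without female sham 3, male sham 8, female TAC 1 or female TAC 2. It was lost without any of the other 11 arrays, with an adjusted p of 0.0536 to 0.351, the highest without male TAC 5, although the change stayed between 1.27 and 1.51. Ccn2 changed by 1.09 ± 0.23 in males (SE, adjusted p from limma 0.124) and passed in 5 of 12 other settings. Among these were quantile normalization (adjusted p = 0.0457), median centring (0.0198), trended and robust eBayes (0.0458) and array weights (0.0492). The other was the omission of female TAC 1 and 2, which leaves 1 female TAC array. Of the 15 single arrays left out, only female TAC 1 brought Ccn2 past the threshold (0.0170). Both omissions left the male change at 1.09. They lowered its SE from 0.23 to 0.18 through the spread that all groups share. Ccn1 had 0.43 ± 0.16 and Sparc 0.51 ± 0.27 (SE), and neither passed (adjusted p = 0.651 and 0.843).

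The TAC effect was then compared between the sexes. The difference (female minus male, log2) was 0.13 ± 0.39 for Postn and 0.33 ± 0.35 for Ccn2 (SE), with intervals of -0.68 to 0.94 and -0.42 to 1.08. Those intervals are too wide to show that the sexes responded alike. Over 11 other settings the difference ran from -0.07 to 0.18 for Postn and from 0.24 to 0.84 for Ccn2. With single arrays left out it ran from -0.28 to 0.45 for Postn and from 0.07 to 0.69 for Ccn2. For Ccn1, Tnc and Fn1 the difference was 0.13, 0.30 and 0.26, and for Sparc it was -0.29. None of the 6 was called by limma or had an unadjusted p under 0.05, and 0% of tested probe sets were called, with 191 at an unadjusted p under 0.05.

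In sham hearts the female minus male difference was largest for Postn, at 0.46 ± 0.25 (SE, interval -0.08 to 0.99, adjusted p from limma 0.974). The 3 female sham arrays read 28.5 or more and 5 of the 6 male sham arrays 24.3 or less, but male sham 8 read 35.3. The other 5 members differed by -0.02 to 0.16. No member was called or had an unadjusted p under 0.05, and 0% of all tested probe sets were called, with 351 at an unadjusted p under 0.05. In order of mean level, Postn was highest in female TAC, then male TAC, female sham and male sham hearts. The ranges of female and male TAC overlapped, as did those of female and male sham, while the TAC and sham ranges did not.

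**Figure D3:**
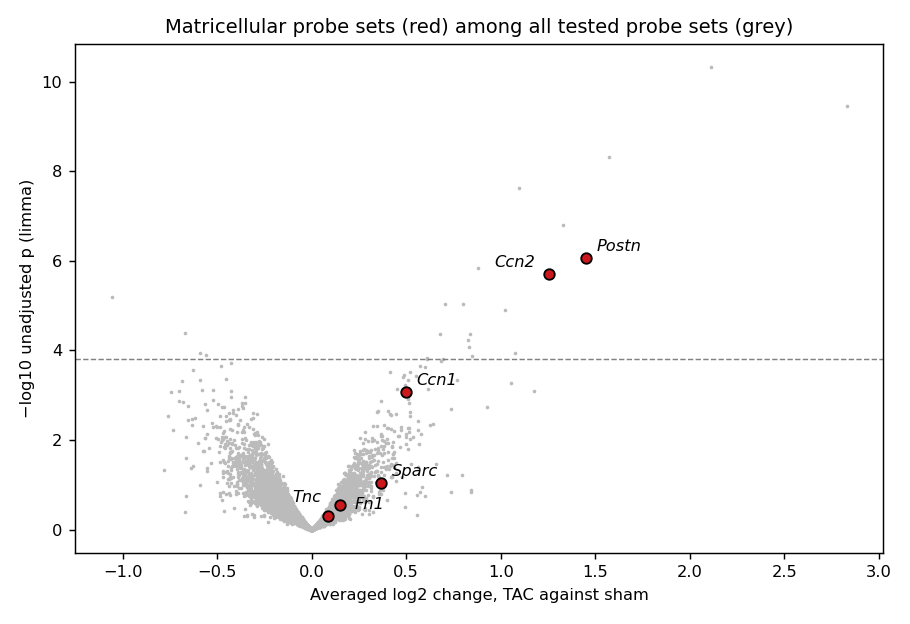
Averaged log2 change of TAC against sham (horizontal) and -log10 of the unadjusted limma p (vertical) for the 7453 tested probe sets in grey, with the 6 matricellular probe sets in red; the dashed line marks the least significant called probe set. Postn and Ccn2 lie above the line at changes of 1.45 and 1.25 and Ccn1 below it at 0.50. Sparc, Fn1 and Tnc lie farther below it at 0.37, 0.15 and 0.09.

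Female TAC 2, female TAC 3 and male TAC 5 were the 3 highest arrays in both Postn and Ccn2, in a different order. Female TAC 2 had the highest Postn (162) and female TAC 3 the highest Ccn2 (234) and Ccn1 (44.9). Among males, TAC 5 was highest of the 3 TAC arrays in Postn, Ccn2 and Ccn1 (71.1, 144 and 36.4). Among the 9 sham arrays, male sham 7 was lowest in Postn, Ccn2, Ccn1 and Fn1, and highest in Tnc. Male sham 8 was the highest sham array in Ccn2, Ccn1 and Fn1.

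**Figure D4:**
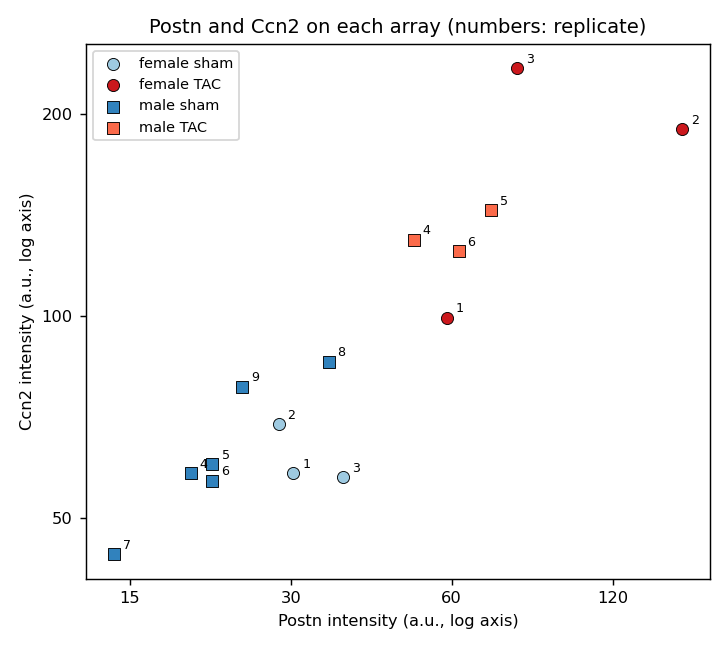
Intensity of Postn (horizontal) and Ccn2 (vertical) on each of the 15 arrays, both on log axes in arbitrary units, with the replicate number beside each point. The 6 TAC arrays lie above and to the right of the 9 sham arrays, and male sham 7 is lowest in both genes (14.0 and 44.1).

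Genes whose log2 values ran most like each of the 2 across the 15 arrays were ranked by Pearson r among tested probe sets with 1 symbol. The operation contributes to every such r, so the r after removal of group means is given as well. For Postn the closest was Bgn, the proteoglycan biglycan, with r = 0.974 (rho 0.981, and 0.864 without group means). Next came Col8a1, a short-chain collagen, with 0.944 (rho 0.928, and 0.819), Nppa with 0.933 (rho 0.920, and 0.613), Prnp with 0.909 (rho 0.935, and 0.626) and Ccn2 with 0.899 (rho 0.854, and 0.587). For Ccn2 the closest was Ankrd1 with 0.927 (rho 0.907, and 0.597). It was followed by Hbegf, an EGF receptor ligand, with 0.926 (rho 0.893, and 0.808), Nppa with 0.926 (rho 0.900, and 0.60), Erf with 0.917 (rho 0.936, and 0.731) and Postn. Among the genes listed for Postn, the r without group means was highest for Bgn (0.864) and Col8a1 (0.819). Among those listed for Ccn2 it was highest for Hbegf (0.808), followed by Erf (0.731). The tested probe sets as a whole were not ranked by that r. No r is given without female TAC 2, which was far above the rest in Postn. All these r values describe genes picked for a high r that includes the operation.

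Other genes of the pathway were read from gene lists, with the brightest probe set of each gene. Of 12 tested other matricellular genes, 8 were higher and 4 lower with TAC, none was called and 2 had an unadjusted p under 0.05 in limma. Their median log2 change was 0.14, where that of all tested probe sets was -0.03. Of all 7453 tested probe sets, 41.8% were higher with TAC and 560 had an unadjusted p under 0.05 in limma. Mgp, matrix Gla protein, an inhibitor of calcification, changed by 1.05 ± 0.25 (SE, adjusted p from limma 0.0982). It passed with quantile normalization, median centring, the offset, array weights and the replicate block in both sexes (adjusted p from 0.0103 to 0.0483). Fbln2, the elastic-fibre glycoprotein fibulin-2, changed by 0.42 ± 0.12 (adjusted p = 0.236) and passed with median centring (0.0492).

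Among 18 tested receptors of these proteins, 7 were higher, 11 were lower and none was called, with 2 at an unadjusted p under 0.05 in limma and a median change of -0.05. Median centring gave 10 higher and 8 lower, with none called. With that centring the median change of all tested probe sets was 0.03, in place of -0.03. This shift affects the centred counts of every list below as well. The smallest p values were those of Stab1, a scavenger receptor that takes up SPARC, with -0.23 ± 0.10, and Vldlr, a receptor of thrombospondin-1, with 0.23 ± 0.10 (SE, adjusted p = 0.592 and 0.621).

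Of 29 tested structural matrix genes and matrix enzymes, 21 were higher and 8 lower, with a median of 0.20. The counts were 26 and 3 with median centring, where the median of all tested probe sets was 0.03. Bgn rose by 0.80 ± 0.13 and Col8a1 by 1.02 ± 0.17 (SE, adjusted p from limma 0.00619 and 0.00778), and no gene of the list was called lower. Quantile normalization, median centring and array weights each called Lum and Dcn as well, 4 in all. Col8a1 lost its call without female TAC 1 and 2, which leaves 1 female TAC array, and also without the filter. It was lost too with the block in both sexes, while Bgn lost its call only with that block among the settings other than single arrays.

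The list of the TGF-beta, YAP/TEAD and SRF pathways, which are known to drive Ccn2 and Ccn1, held 23 tested genes. Of these, 12 were higher, 11 lower, and 1 was called. This was Ankrd1, a YAP target and stress-response gene of cardiomyocytes, which rose by 1.10 ± 0.11 (SE, adjusted p from limma 4.48e-05). The ligand Tgfb3 had 0.30 ± 0.12 (adjusted p = 0.553) and Tead3, a TEAD factor, -0.66 ± 0.22 (adjusted p = 0.408). Of 18 tested immediate early genes, the class to which Ccn1 belongs, 9 were higher and 9 lower, none was called and 1 had an unadjusted p under 0.05 in limma. Their median was -0.02. The smallest p values were those of Btg2 with -0.47 ± 0.22 and Jun with -0.22 ± 0.14 (SE, adjusted p = 0.654 and 0.775).

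**Figure D5:**
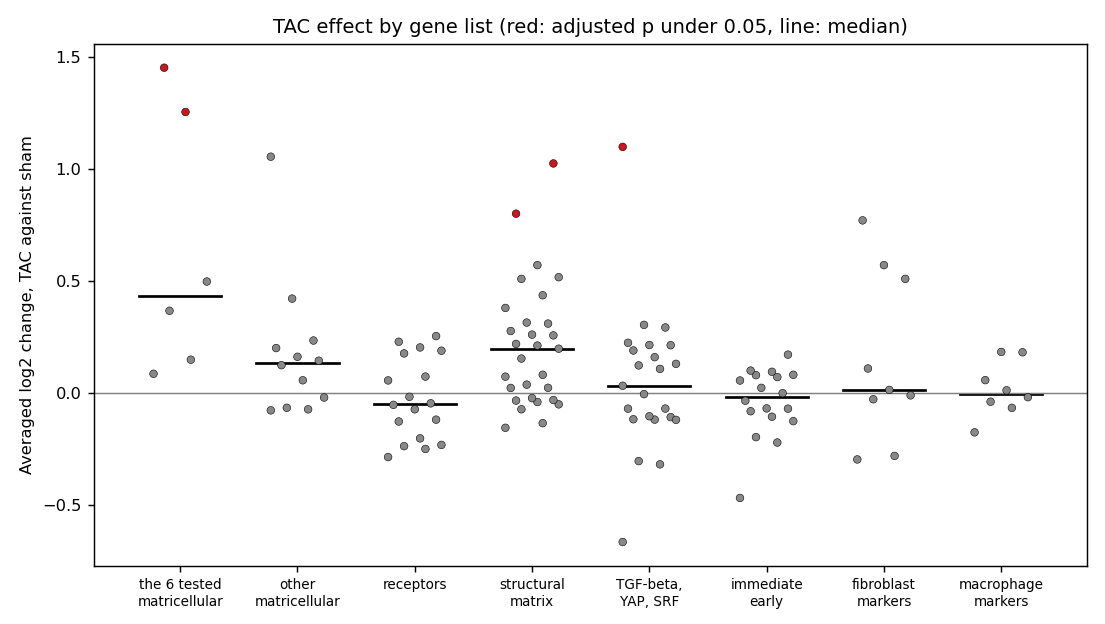
Averaged log2 change of TAC against sham for each tested gene (points) of the matricellular genes and of 7 lists, with the median of each as a line; red points had an adjusted p under 0.05. The medians are 0.43 for the 6 tested matricellular genes, 0.14 for other matricellular genes and 0.20 for structural matrix genes, and between -0.05 and 0.03 for the other 5 lists.

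Markers of cells that make or take up these proteins were measured on the same arrays. Of 9 tested fibroblast markers, 5 were higher and 4 lower, none was called and 5 had an unadjusted p under 0.05 in limma, with a median of 0.02. Among all 7453 tested probe sets, 41.8% were higher and 560 had such a p. Median centring, where the median of all tested probe sets was 0.03, gave 7 higher and 2 lower, with 3 called. Lum, Mfap5 and Dcn had 0.57 ± 0.12, 0.77 ± 0.18 and 0.51 ± 0.13 (SE, adjusted p = 0.0585, 0.0871 and 0.162) and were called with quantile normalization, median centring and array weights. Thy1 and Vim were lower, at -0.29 ± 0.12 and -0.28 ± 0.12 (SE, unadjusted p from limma 0.0211 and 0.0298). Ddr2, Dpt, Pdgfrb and Pdgfra lay between -0.03 and 0.11. The summed intensity of the 10 markers on the array ran from 1371 to 1500 in female sham and 1374 to 2072 in female TAC hearts. In males it ran from 1068 to 1520 in sham and from 1632 to 1875 in TAC hearts, without overlap. Most of the male difference lay in 1 bright probe set, that of Dcn, with a mean of 814 in sham and 1216 in TAC hearts. Without Dcn, left out after seeing the data, the sum ran from 407 to 519 in male sham and 489 to 523 in male TAC hearts, which overlap. In females it ran from 511 to 558 and 453 to 585. None of the 10 was below the floor on all arrays, and the part of fibroblast number in the Postn and Ccn2 rises was not tested.

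Of 13 macrophage and leukocyte markers, Adgre1, Ptprc, Lgals3, Itgam and Mrc1 were below the floor on every array, and Ptprc was at 0 on 7 arrays. The 8 tested ones had a median change of 0.00, with 4 higher and 4 lower, or 6 and 2 with median centring, and the summed level overlapped between sham and TAC in both sexes (541 to 597 and 486 to 756 in females, 530 to 670 and 568 to 593 in males). The platelet marker Pf4 was below the floor on every array. Acta2, the actin of smooth muscle and myofibroblasts, had -0.44 ± 0.22 (SE, adjusted p = 0.677). The 4 tested smooth muscle and myofibroblast genes, the 8 macrophage, the 2 platelet, the 8 endothelial and the 3 bone and cartilage genes held no call and none at an unadjusted p under 0.05 in limma.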

How the data were processed

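The members, gene lists and tests were chosen with earlier results of these data known. The authors deposited 1 intensity per probe set and array, linear and in arbitrary units. How they corrected background and scaled the arrays is not given in the sources used here. Medians of the deposited arrays lay within a ratio of 1.26, so that level was kept. The 66 control probe sets were left out. Gene symbols came from the platform annotation, updated by Entrez number through a RefSeq gene table.

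Intensities were floored at 20 (the higher of 20 and the 30th percentile of all values, 11.9) and log2 was taken, which makes changes of dim genes smaller. One mean per sex and operation was estimated from the 15 arrays by limma 3.58.1 in R 4.3.3, using lmFit and eBayes. The Benjamini-Hochberg adjustment ran over the 7453 probe sets tested. Intervals are 95%. Single values of members were also tested by exact permutation, exchanging sham and TAC within sex. Named genes were the members, the list genes that passed a TAC contrast, the 2 of smallest p of lists where none did, and the 5 most similar genes; others are there as list markers. The scripts' methods were tested on simulated data.

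Sham and TAC titles share numbers 1 to 6. Deviations of same-numbered arrays from their group means correlated at 0.244, 0.270 and 0.117 in females and at 0.0641, -0.0828 and 0.0136 in males, so the limit of 0.1 was passed in females alone. Alternatives were another normalization, centring, floor, offset, filter, eBayes or array weights, a replicate block, fits of the compared groups alone, and omission of each array in turn. Blocking the female arrays by number and omitting 2 arrays were added after seeing the data.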

Additional observations from a re-analysis of the deposited data

Results flagged for a closer look

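One of the 6 tested members had an array that stood apart in the male sham group, the only group large enough to be examined for this. Ccn1 read 7.97 on male sham 7, where the other 5 male sham arrays lay between 20.7 and 26.2. The gap to the nearest array was 0.697 of the range of the group, above the critical value of 0.625, and chance alone puts about 1 in 20 groups past that value. The same array was the lowest sham array in 4 of the 6 tested members, and its mean r with the other arrays was 0.940. Of the 9 sham arrays it had the lowest mean r, the lowest median (23.7) and the largest share of probe sets below the floor (45.2%). The floor of 20 hides most of this gap in the test. Without male sham 7 the averaged log2 change of Ccn1 was 0.48 (adjusted p from limma 0.189). Its cause was not tested.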

How the results depend on the processing

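Postn and Ccn2 kept their averaged calls in all 11 other settings (log2 1.03 to 1.53 and 1.04 to 1.51; adjusted p up to 0.0345 and 0.0445) and without any single array. The change of 1.51 for Ccn2 came without female TAC 1 and 2, where female TAC is 1 array. Sparc, Tnc and Fn1 were called in no setting and no contrast. Ccn1 could not be tested with the stricter filter, which also left out Tnc and Fn1.

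The number of probe sets called for the averaged effect (24) was 45 with quantile normalization, 44 with median centring, 68 with array weights, 10 with a floor at the 10th percentile, 13 without the filter and 8 with the replicate block in both sexes. It was 12 without male TAC 5 and at most 29, without male TAC 6. In females (6) it was 10 with centring and with trended, robust eBayes, 36 with array weights, 3 with the block and 2 in a fit of females alone, and 2 to 8 without single arrays. In males (10) it was 19 with centring, 16 with trended, robust eBayes, 3 with the lower floor, 6 with the offset, 4 without the filter, 3 with the block, and 3 to 12 without single arrays. The sex difference of the effect (0) had 2 without female TAC 1 and 2, where female TAC is 1 array assumed to vary like the others. That in sham hearts (0) had 2 without the filter, 1 with trended eBayes, 2 with array weights and 1 without those arrays. With the replicate block in both sexes the sham comparison could not be fitted, and Postn in males lost its call (adjusted p = 0.288), as it did with the lower floor, the offset and no filter. Blocking only the female arrays changed no member call beyond that of Ccn2 in females. The causes were not tested. Sign changes of uncalled values were not counted as reversals.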
